A study of Mus musculus with 12 samples.

Results

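The 42 genes described here mark leukocytes and were chosen by symbol from the 54232 genes of the deposited count table: 6 genes shared by most leukocytes, 11 of T cells, 7 of cytotoxic T and natural killer (NK) cells, 14 of macrophages and monocytes, the 2 calprotectin subunits and 2 of B cells. They were followed through 12 libraries of B16F10, a melanoma cell line of C57BL/6 mice, in 4 groups of 3. WT is the untreated culture. The relapsed lines, ITF1, Rel and ITM, are B16 cells sorted from tumors that had come back after immunotherapy and then cultured to confluency, with 1 library for each. The labels do not name the immunotherapy, and the study's methods describe anti-CD40, TNFα and the tumor-binding antibody anti-TRP1, injected into the tumor. Lyso is B16F10 incubated for 48 h, by the sample labels, with lysosomes derived from T cells, which the study's methods describe as secreted granules of activated splenic CD8+ T cells, concentrated and applied for a shorter time to cells seeded on coated low-adherence plates. Tumor 1, 3 and 4 are cells sorted by flow cytometry out of tumors that relapsed under immunotherapy, with RNA taken at once. The tumors grew under the skin of C57BL/6 mice aged 6 weeks, and the gate of the sort is not given in the labels. For WT, Lyso and Tumor it is not stated whether the 3 libraries come from separate cultures or animals, and for the relapsed lines the animals are not stated. The p-values measure the spread between these libraries. In the shared fit of all 12 libraries, this includes the spread between different relapsed lines. The comparison asks whether the leukocyte transcripts counted in B16F10 libraries after contact with a granule preparation are the ones counted after sorting from a tumor. Whether this RNA came from the B16F10 cells or from other material was not tested for any gene.

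Leukocytes share a set of proteins that other cells lack, among them the CD45 phosphatase encoded by Ptprc, and carry lineage genes on top of it. Cytotoxic T cells recognise a target through the T cell receptor with its CD3 chains and the CD8 coreceptor, and kill it by releasing lytic granules that hold perforin and granzymes. Macrophages, which populate many solid tumors, are known by receptors such as F4/80, CD14 and CD206 and by the secretion of lysozyme and of C1q, the first component of the classical complement pathway. B cells are known by CD20 and the CD79 chains of their antigen receptor.

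The libraries held between 1667398 and 16402629 counts on genes. Depth was low in WT 1, WT 2, Tumor 1, Tumor 3 and Tumor 4, at no more than 5049496 counts, and high in WT 3, the relapsed lines and the Lyso libraries, at no fewer than 10895611. A gene was called detected in a library with more than 3 counts, which stand for 1.80 CPM (counts scaled to the library's total, given on the usual scale of 1e6) in WT 1 and 0.183 CPM in WT 3, and these floors cover counting error only. The labelled cell type showed 10 of 10 melanocyte genes, each detected in all 12 libraries, with a mean summed level between 21751 CPM in Tumor and 30147 CPM in the relapsed lines. In RNA of bulk samples, fewer cells of a type and less RNA per cell cannot be told apart.

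Of the 42 genes, 30 are in the RefSeq promoter table for GRCm38.p6, which covers 250 bases before a start and 50 after it. The stretches before the start are printed 5′ to 3′ for 4 genes that were high in Tumor (C1qb, C1qc, Mrc1 and Lyz2) and 2 that were high in Lyso (Gzmb and Cd8a), since the comparison turns on them. Each window ends before the RefSeq start and before the start of the gene in the GENCODE annotation. Capitals mark GAGGAA or GAGGAAGT, sequences bound by the myeloid and B cell factor PU.1, and TGTGGT, bound by the RUNX factors of T cells and other blood cells, on either strand. GAGGAAGT contains GAGGAA.
C1qb, chr4:136886201-136886450, minus strand: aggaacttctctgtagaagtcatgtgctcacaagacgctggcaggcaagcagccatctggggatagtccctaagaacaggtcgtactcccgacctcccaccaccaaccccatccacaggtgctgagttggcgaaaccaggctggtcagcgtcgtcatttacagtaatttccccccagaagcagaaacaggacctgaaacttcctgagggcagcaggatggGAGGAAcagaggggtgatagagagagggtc
C1qc, chr4:136893066-136893164, minus strand: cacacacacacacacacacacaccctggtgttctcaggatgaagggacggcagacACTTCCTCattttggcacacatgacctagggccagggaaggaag
Mrc1, chr2:14229164-14229391, plus strand: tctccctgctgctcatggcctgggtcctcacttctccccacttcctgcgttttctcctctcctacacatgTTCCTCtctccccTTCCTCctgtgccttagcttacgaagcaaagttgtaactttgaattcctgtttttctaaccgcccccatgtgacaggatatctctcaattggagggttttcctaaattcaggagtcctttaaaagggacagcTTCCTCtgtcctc
Lyz2, chr10:117282322-117282522, minus strand: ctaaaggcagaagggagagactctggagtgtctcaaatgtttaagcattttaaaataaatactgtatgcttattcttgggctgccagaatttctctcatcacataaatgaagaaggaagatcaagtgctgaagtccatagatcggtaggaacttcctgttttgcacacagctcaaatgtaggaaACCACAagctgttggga
Gzmb, chr14:56262335-56262584, minus strand: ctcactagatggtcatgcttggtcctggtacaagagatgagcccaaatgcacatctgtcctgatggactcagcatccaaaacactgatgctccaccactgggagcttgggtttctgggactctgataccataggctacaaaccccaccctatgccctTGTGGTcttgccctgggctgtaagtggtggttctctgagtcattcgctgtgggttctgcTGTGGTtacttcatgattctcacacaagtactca
Cd8a, chr6:71373177-71373426, plus strand: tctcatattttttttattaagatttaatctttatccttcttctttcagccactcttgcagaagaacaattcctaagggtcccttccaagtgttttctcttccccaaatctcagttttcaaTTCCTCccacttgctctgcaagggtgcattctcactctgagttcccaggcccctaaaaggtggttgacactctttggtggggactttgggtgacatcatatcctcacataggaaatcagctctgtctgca
GAGGAAGT was present in 3.20% of the 32851 promoters of the table, GAGGAA in 28.3% and TGTGGT in 16.8%. Among the 30 genes, 3 held GAGGAAGT (C1qc, Cd53 and S100a8), 20 held GAGGAA and 13 held TGTGGT in at least 1 of their promoters. GAGGAA was found for 7 of the 9 macrophage and monocyte genes matched and for 8 of the 14 genes of T cells and cytotoxic cells, and TGTGGT for 3 of 9 and 8 of 14. The 37 promoters of the 30 genes include several of the same gene, which raises the count per gene. A match describes the letters and is not a binding site.

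More of the leukocyte genes were detected in Lyso and Tumor than in WT and the relapsed lines, and the lists of Lyso and Tumor overlapped in part. In Lyso, 19 of the 42 genes were detected in all 3 libraries, in Tumor 15, in the relapsed lines 7 and in WT 2. The share of all genes detected by this rule was not counted for any group, and the libraries WT 1 and WT 2 had the lowest depth. At a comparable depth, the deep libraries held 21 to 24 of them each in Lyso, 8 or 9 each in the relapsed lines and 10 in WT 3. The lists of Lyso and Tumor shared 9 genes, which are 47.4% of the Lyso list and 60% of the Tumor list. Present in all Lyso libraries but not in all Tumor libraries were Cd8a, Cd8b1, Gzma, Gzmb, Nkg7, Cd28, Cd79a, Cd52, Coro1a and Rac2, and the reverse held for Adgre1, Cd14, Mrc1, C1qa, C1qb and C1qc. The Tumor libraries were shallower than those of Lyso. Among the former genes, the 95% counting interval of the pooled ratio of Tumor to Lyso included 1 for Nkg7, Cd79a, Rac2, Cd52 and Cd28. With 1 floor of 1.80 CPM for every library, the numbers were 8 in Lyso and 12 in Tumor, so that the order between these 2 groups depended on the floor. Members with 3 counts or fewer in every library numbered 7, namely Cd3g, Cd4, Prf1, Ncr1, Klrb1c, S100a8 and S100a9.

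**Figure D1:**
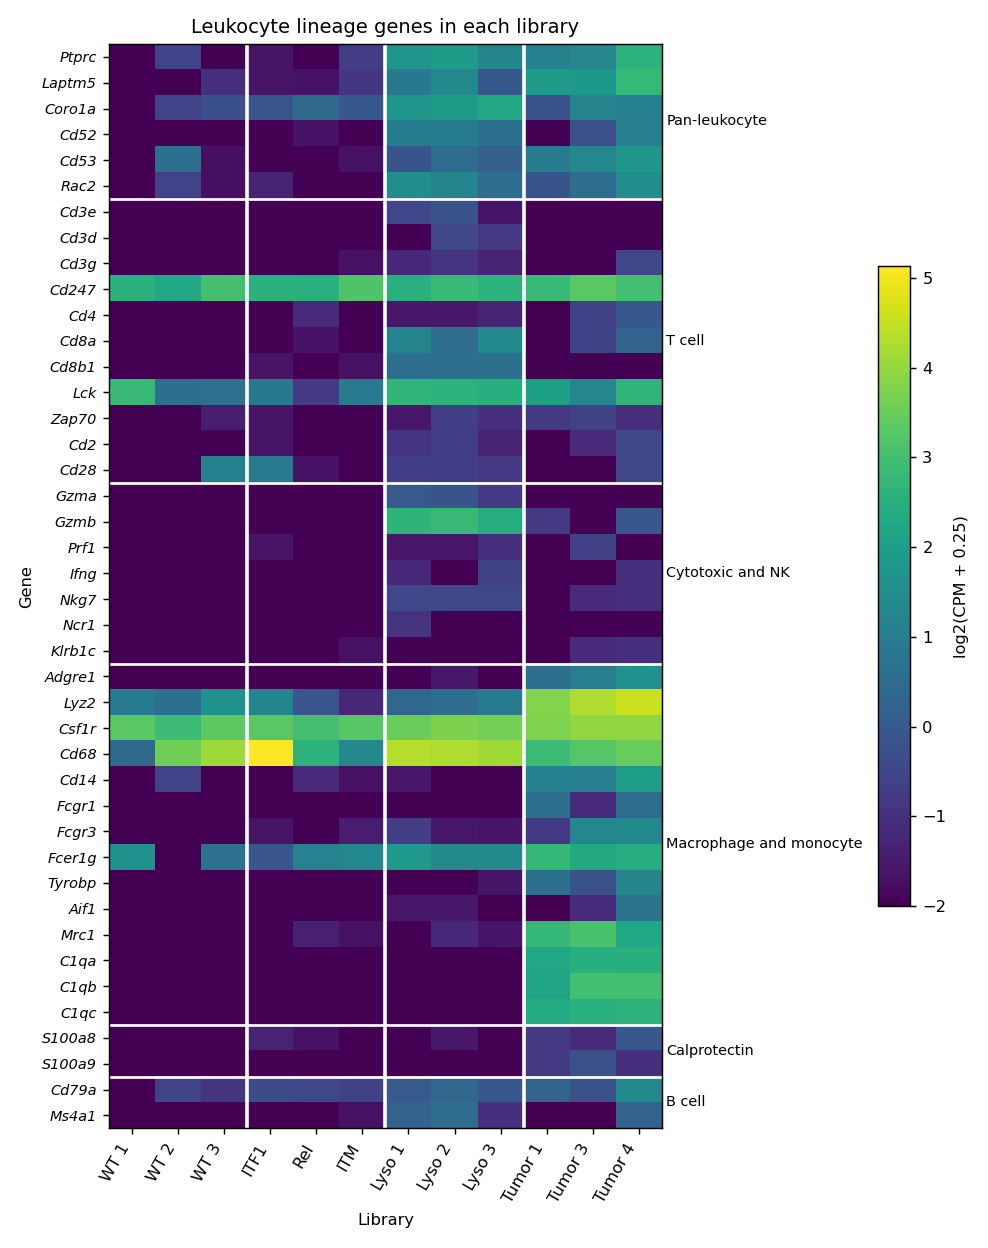
Level of the 42 leukocyte genes (rows, by class) in each of the 12 libraries (columns, by group), as log2(CPM + 0.25). The macrophage rows from Mrc1 to C1qc are bright in the 3 Tumor columns and dark elsewhere, while Gzmb, Cd8a and Cd8b1 are bright in the 3 Lyso columns, and Cd247, Csf1r and Cd68 are bright in every group.

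Of the 6 genes of all leukocytes, 4 (Ptprc, Laptm5, Cd52 and Rac2) were called higher than WT in both Lyso and Tumor, Coro1a in Lyso and Cd53 in Tumor. A call needs an adjusted p under 0.05 and a log2 fold change over 1, and it was met by 2.43% of the 14924 genes tested for a rise in Lyso and by 8.56% for a rise in Tumor. Ptprc (ENSMUSG00000026395, chromosome 1 of GRCm38, 138062861 to 138175708), encoding CD45, had 0, 1 and 0 counts in WT 1, 2 and 3. It had 32, 39 and 27 counts in Lyso and 6, 11 and 25 in Tumor, and all libraries of both groups lay above WT in CPM. Scaled to depth, Lyso held 2.94 ± 0.725 CPM (SD, n = 3). Tumor held 3.35 ± 2.20 CPM (SD, n = 3), and the ranges overlapped. Relative to WT, Ptprc rose by 5.53 on the log2 scale in Lyso (SE, the standard error, 1.13; edgeR's quasi-likelihood test with Benjamini-Hochberg adjustment, adjusted p = 0.0136) and by 5.74 in Tumor (SE 1.15, edgeR adjusted p = 0.0040). Because WT held 1 count in all, the pooled ratios were 57.3 in Lyso (95% counting interval 10.05 to 2287) and 68.7 in Tumor (11.7 to 2778). Between Tumor and Lyso, the pooled ratio was 1.20 with an interval from 0.815 to 1.74. A difference in Ptprc between these groups was not detectable at this depth.

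Cd52, a small surface glycoprotein, was at 0 in WT, at 19, 19 and 16 counts in Lyso and at 0, 3 and 8 in Tumor. Its Lyso libraries lay above WT, while Tumor 1 overlapped it at 0. Against 3 counts over the WT group, it was at least 10.5-fold higher in Lyso (edgeR adjusted p = 0.0185) and at least 6.00-fold higher in Tumor (edgeR adjusted p = 0.0264), and 14.5% of its exonic bases lie opposite exons of Crybg2. Rac2, a GTPase of the blood cell cytoskeleton, had 0, 1 and 1 counts in WT, 28, 23 and 15 in Lyso and 2, 6 and 11 in Tumor. Rac2 rose by 4.15 on the log2 scale in Lyso (SE 0.92, edgeR adjusted p = 0.0214) and by 3.78 in Tumor (SE 1.01, edgeR adjusted p = 0.0196).

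Laptm5, a lysosomal membrane protein of blood cells, had 0, 0 and 4 counts in WT, 17, 25 and 9 in Lyso and 11, 16 and 28 in Tumor. It rose in both groups against WT, by 3.0 on the log2 scale in Lyso (SE 0.78, edgeR adjusted p = 0.0485) and by 4.53 in Tumor (SE 0.76, edgeR adjusted p = 0.00121). Coro1a, the actin-binding coronin of leukocytes, had 0, 1 and 10 counts in WT, 32, 39 and 56 in Lyso and 2, 10 and 8 in Tumor. It rose in Lyso by 2.89 (SE 0.49, edgeR adjusted p = 0.00480), and in Tumor its log2 fold change of 1.67 had an adjusted p of 0.0585. Cd53, a tetraspanin, had 0, 3 and 1 counts in WT, 7, 13 and 11 in Lyso and 5, 11 and 13 in Tumor. It rose in Tumor by 3.33 (SE 0.85, edgeR adjusted p = 0.0160), and in Lyso its log2 fold change of 2.0 had an adjusted p of 0.241.

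Of the 18 genes of T cells and cytotoxic cells, 5 passed the filter on low counts, and 3 of them (Gzmb, Cd8a and Cd8b1) were higher in Lyso than in WT, while Lck and Cd247 were not called. Gzmb (ENSMUSG00000015437, chromosome 14, 56258838 to 56262260), granzyme B, had 64, 72 and 63 counts in the Lyso libraries. It had 0 counts in all 3 WT libraries and in all 3 relapsed lines, and 1, 0 and 3 in Tumor. The Lyso libraries lay above all 9 others, at 5.94 ± 0.805 CPM (SD, n = 3). This was at least 38.8-fold above WT, taking 3 counts over the WT group, and the call had an adjusted p of 0.00173 (edgeR). Gzma, granzyme A, had 8, 7 and 4 counts in Lyso and 0 in every other library. It did not pass the filter on low counts and was at least 3.71-fold higher than WT over the pooled counts. Perforin, encoded by Prf1, which opens the target membrane for granzymes, had 1, 1 and 3 counts in Lyso, 0, 2 and 0 in Tumor, 0 in WT and 1 in ITF1. Per kilobase of exon, Gzmb reached 3.97 CPM in Lyso and Prf1 0.0555 CPM.

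Both chains of the CD8 coreceptor were present in Lyso. Cd8a (chromosome 6, 71373427 to 71379173) had 22, 13 and 28 counts in Lyso, 0 in all WT libraries, 1 in Rel and 0, 2 and 4 in Tumor. Cd8b1 (chromosome 6, 71322788 to 71337494) had 13, 14 and 16 counts in Lyso, 1 each in ITF1 and ITM and 0 in the WT and Tumor libraries. For both genes the Lyso libraries lay above the WT and the Tumor libraries in CPM. Against WT, Cd8a was at least 12.3-fold higher (edgeR adjusted p = 0.00858) and Cd8b1 at least 8.38-fold (edgeR adjusted p = 0.00845). The CD3 chains were sparse. Cd3e had 5, 7 and 1 counts in Lyso, and Cd3d 0, 5 and 4, and both were at 0 in the other 9 libraries. Per kilobase, Cd8a stood at 0.497 CPM in Lyso and Cd3e at 0.0914 CPM. Cd4, the coreceptor of helper T cells, had 1, 1 and 2 counts in Lyso, 0, 2 and 3 in Tumor and 3 in Rel.

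Other genes of cytotoxic cells were sparse. Nkg7, a protein of cytotoxic granules, had 5, 5 and 6 counts in Lyso and 0, 1 and 1 in Tumor. Ifng, interferon gamma, had 2, 0 and 5 counts in Lyso and 1 in Tumor 4, and it shares 25.95% of its exonic bases with an overlapping gene model. The NK receptors Ncr1 and Klrb1c had no more than 3 counts in any library. Summed over the 7 cytotoxic and NK genes, Lyso held 7.42 ± 0.758 CPM (SD, n = 3). Tumor held 0.846 ± 0.544 CPM (SD, n = 3), the relapsed lines 0.0455 CPM and WT 0.

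In all, 8 of the 42 genes were called higher in Lyso than in WT (Ptprc, Laptm5, Coro1a, Cd52, Rac2, Cd8a, Cd8b1 and Gzmb) and 0 lower, out of 22 that passed the filter on low counts. Over all genes tested, 2.43% were called higher. A gene can pass this filter through the group in which it is high, and a gene at 0 in WT could not be called lower. The median log2 fold change of those 22 was 1.61, against -0.005 over all genes tested. Laptm5 was kept in 6 of the 14 alternatives that tested it. The number of calls rested on the controls, being 2 without WT 3 (Coro1a and Gzmb) and 5 without Lyso 1 or without Lyso 2, and 5 against WT 3, the control of similar depth, alone.

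**Figure D2:**
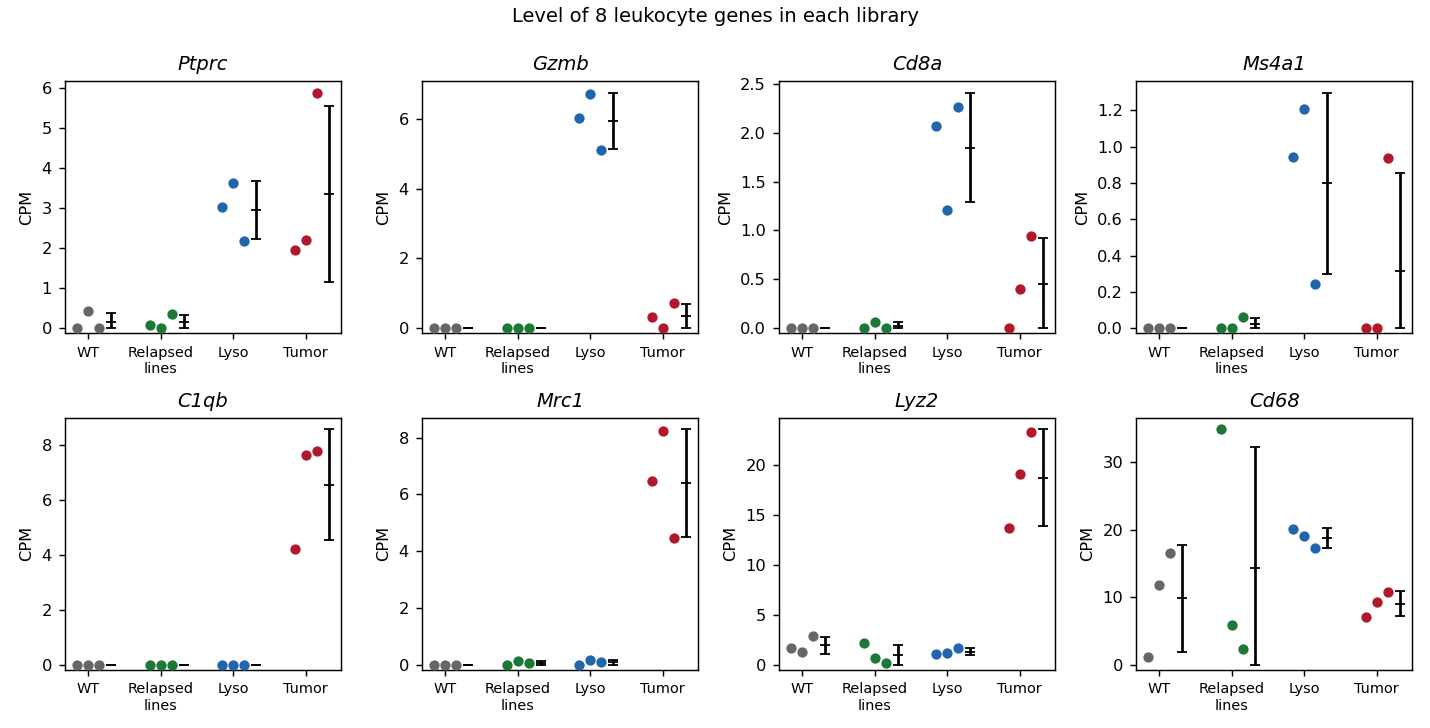
CPM of 8 leukocyte genes, with 1 point per library and the mean with SD of the 3 libraries of a group beside it (lower bars end at 0). Gzmb and Cd8a are highest in the 3 Lyso libraries, C1qb, Mrc1 and Lyz2 in the 3 Tumor libraries, Ptprc is above WT in both, and Cd68 spreads over all groups, from 1.13 to 34.8 CPM.

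Of the 14 macrophage and monocyte genes, 10 passed the filter, and 8 of these were higher in Tumor than in WT, while Csf1r and Cd68 were not called. The 3 chains of complement C1q, whose genes lie side by side on chromosome 4 between 136880129 and 136898803, were at 0 in all WT, relapsed-line and Lyso libraries. C1qa had 14, 27 and 23 counts in Tumor 1, 3 and 4. C1qb had 13, 38 and 33, and C1qc 15, 28 and 25. All 3 Tumor libraries thus held each chain, at 5.13 ± 0.504, 6.54 ± 2.01 and 5.46 ± 0.525 CPM (SD, n = 3). Against 3 counts over the WT group, C1qa was at least 34.9-fold higher, C1qb at least 45.8-fold and C1qc at least 37.1-fold, with adjusted p-values of 0.000782, 0.00107 and 0.000715 (edgeR). The 0 counts in Lyso, with 34879065 counts over its libraries, allow a level of up to 0.0860 CPM.

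Mrc1 (ENSMUSG00000026712, chromosome 2, 14229392 to 14332057), the mannose receptor CD206, had 20, 41 and 19 counts in Tumor. It had 0 in WT, 0, 2 and 1 in ITF1, Rel and ITM, and 0, 2 and 1 in Lyso. The Tumor libraries lay above all 9 others, at least 43.6-fold above WT (edgeR adjusted p = 0.000208). Adgre1, which encodes F4/80, had 4, 9 and 12 counts in Tumor, 1 in Lyso 2 and 0 elsewhere. It was at least 13.6-fold higher in Tumor than in WT (edgeR adjusted p = 0.00304). Cd14, the coreceptor for bacterial lipopolysaccharide, had 6, 9 and 16 counts in Tumor, 1 in Lyso 1, 1 in WT 2 and 0, 3 and 1 in ITF1, Rel and ITM. Its pooled ratio to WT was 50.7 (95% counting interval 8.45 to 2067, adjusted p = 0.00382 by edgeR).

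Lyz2, lysozyme of macrophages and granulocytes, was not silent in cultured B16F10, with 3, 3 and 48 counts in WT and 28, 10 and 3 in ITF1, Rel and ITM. In Tumor it had 42, 95 and 99 counts, or 18.7 ± 4.83 CPM (SD, n = 3), where WT had 1.93 ± 0.807 CPM (SD, n = 3). The Tumor libraries lay above all others and the log2 fold change was 3.04 (SE 0.58, edgeR adjusted p = 0.00272). Its near copy Lyz1 can share reads with it. Fcer1g, the signalling chain of Fc receptors, had 5, 0 and 23 counts in WT and 20, 24 and 22 in Tumor, a rise of 2.04 on the log2 scale (SE 0.59, edgeR adjusted p = 0.0291).

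Further myeloid genes appeared in Tumor below the filter. Tyrobp, the adaptor DAP12, had 4, 3 and 9 counts in Tumor, 1 in Lyso 3 and 0 elsewhere. Fcgr3, a low-affinity receptor for IgG, had 1, 11 and 10 in Tumor, and Fcgr1, the high-affinity receptor, 4, 1 and 5. Fcgr1 was at 0 in all other libraries, and Fcgr3 had at most 4 counts in any of them. Aif1 had 0, 1 and 6 counts in Tumor and at most 1 elsewhere. The calprotectin genes S100a8 and S100a9, abundant in neutrophils, had 5 counts each over the Tumor libraries and no more than 3 in any library.

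In Tumor, 14 of the 42 genes were called higher than in WT and 0 lower, out of the 22 tested. Over all genes tested, 8.56% were called higher. Of the 14, 8 were macrophage genes. The other 6 were 5 pan-leukocyte genes and Cd79a. The median log2 fold change of the 22 was 4.16, or 2.81 with genes at 0 in WT set to their lower bound, against 0.001 over all genes tested. Some of the 22, the C1q chains among them, passed the filter only through Tumor, which raises this median. Genes at 0 in WT could not be called lower. Without WT 3, and so against WT 1 and WT 2 of similar depth, 6 calls were made (C1qa, C1qb, C1qc, Laptm5, Lyz2 and Mrc1), and 8 without Tumor 4. Cd79a was kept in 5 of 12 alternatives and Fcer1g in 8 of 15, counting only those that tested the gene. Genes of other cells moved in the same direction, since 9 of 10 fibroblast genes and 6 of the 6 endothelial genes tested out of 8 were called higher in Tumor than in WT, with summed levels of 7914 to 10961 CPM and 48.2 to 53.6 CPM per Tumor library, and their part in the leukocyte values was not tested.

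**Figure D3:**
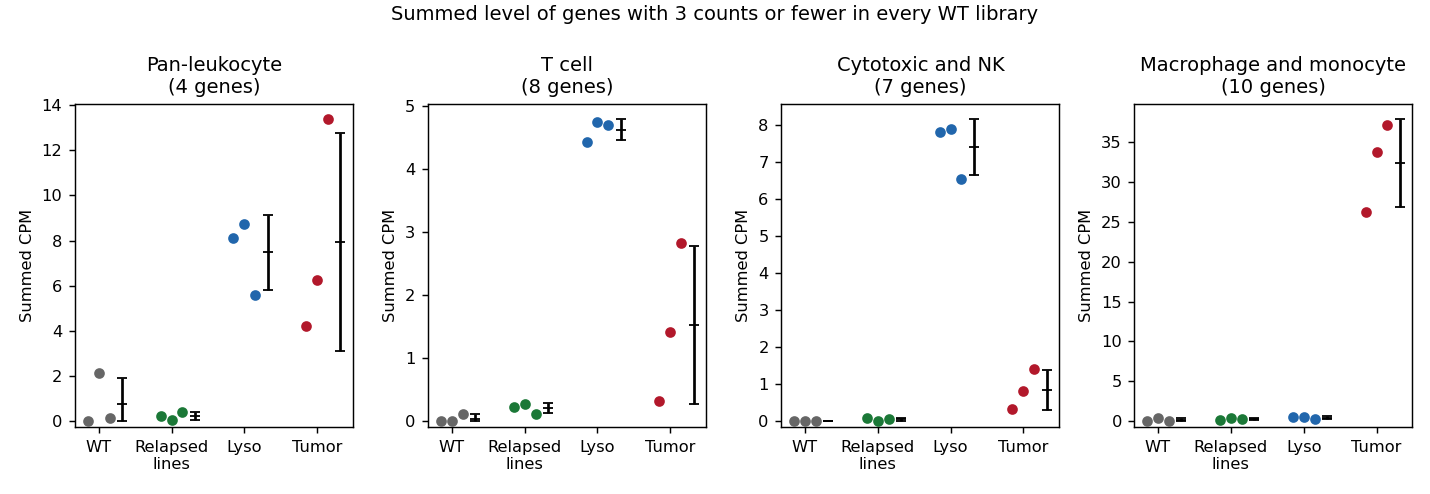
Summed CPM, by class, of the 32 leukocyte genes with 3 counts or fewer in every WT library (4 pan-leukocyte, 8 T cell, 7 cytotoxic and NK, and 10 macrophage and monocyte genes shown), with 1 point per library and mean and SD beside (lower bars end at 0). Lyso and Tumor overlap for the pan-leukocyte sum, Lyso is higher for T cell and cytotoxic genes, and Tumor is higher for macrophage genes.

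Summed by class, the same division was seen in each library. The genes were taken for this sum by their counts in WT, and it is a description without a test. The 10 macrophage genes with 3 counts or fewer in every WT library summed to 26.3, 33.8 and 37.1 CPM in Tumor 1, 3 and 4 and to 0.565, 0.465 and 0.243 CPM in Lyso 1, 2 and 3. The 7 cytotoxic genes summed to 7.81, 7.91 and 6.55 CPM in Lyso and to 0.325, 0.804 and 1.41 CPM in Tumor, while the 8 T cell genes summed to 4.42, 4.74 and 4.69 CPM and to 0.325, 1.41 and 2.82 CPM. Neither class overlapped between Lyso and Tumor. The 4 pan-leukocyte genes summed to 8.10, 8.74 and 5.58 CPM in Lyso and to 4.22, 6.23 and 13.4 CPM in Tumor, which overlapped. Tumor 4 held the highest value of the 3 Tumor libraries in each of these sums, and Tumor 1 the lowest.

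Compared directly, 22 of the 42 genes were tested. Tumor was higher than Lyso in 8 (Adgre1, C1qa, C1qb, C1qc, Cd14, Laptm5, Lyz2 and Mrc1), beside 8.78% of all genes tested, and lower in 3 (Gzmb, Cd8b1 and Coro1a), beside 4.14%. The C1q chains, at 0 in Lyso, passed the filter only through Tumor and could not be called lower. Adgre1, Cd14 and Mrc1, with at most 3 counts over the Lyso libraries, had little room to be lower. Cd8b1, at 0 in Tumor, could not be called higher there. All of those higher except Laptm5 were macrophage genes. The C1q chains were at least 59.7-fold (C1qa), 78.3-fold (C1qb) and 63.4-fold (C1qc) higher in Tumor, against 3 counts over the Lyso group. Mrc1 had a pooled ratio of 74.6 (95% counting interval 24.6 to 369.3) and an adjusted p of 7.4e-05 (edgeR). Lyz2 rose by 3.81 on the log2 scale (SE 0.55, edgeR adjusted p = 0.000310), from 1.31 ± 0.344 CPM (SD, n = 3) in Lyso. Adgre1, with 25 counts against 1, had a pooled ratio of 69.9 (11.5 to 2871), and Cd14, with 31 against 1, one of 86.7 (14.5 to 3534).

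In the other direction, Gzmb was 4.13 lower in Tumor on the log2 scale (log2 fold change -4.13, SE 0.61, edgeR adjusted p = 0.00145). Cd8b1, at 0 in the Tumor libraries, was at least 5.12-fold higher in Lyso (edgeR adjusted p = 0.00361). Coro1a had a log2 fold change of -1.23 (SE 0.41, edgeR adjusted p = 0.0464). Cd8a, whose Tumor libraries all lay below Lyso, had a log2 fold change of -1.91 and an adjusted p of 0.0607, and did not pass. The call of Coro1a was kept in 5 of 14 alternatives (adjusted p up to 0.151) and that of Laptm5 in 7 of 14 (up to 0.187), and both were lost with DESeq2 and without any 1 of the Tumor libraries. Without the filter on low counts, 6 genes were called lower, Cd8a, Gzma and Cd68 among them. The depth of Tumor, 12469311 counts in all, allows up to 0.241 CPM of a gene at 0 there, so that Cd3e and Cd3d, at 0.373 and 0.258 CPM over the Lyso libraries, lay close to the limit of what Tumor could show.

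**Figure D4:**
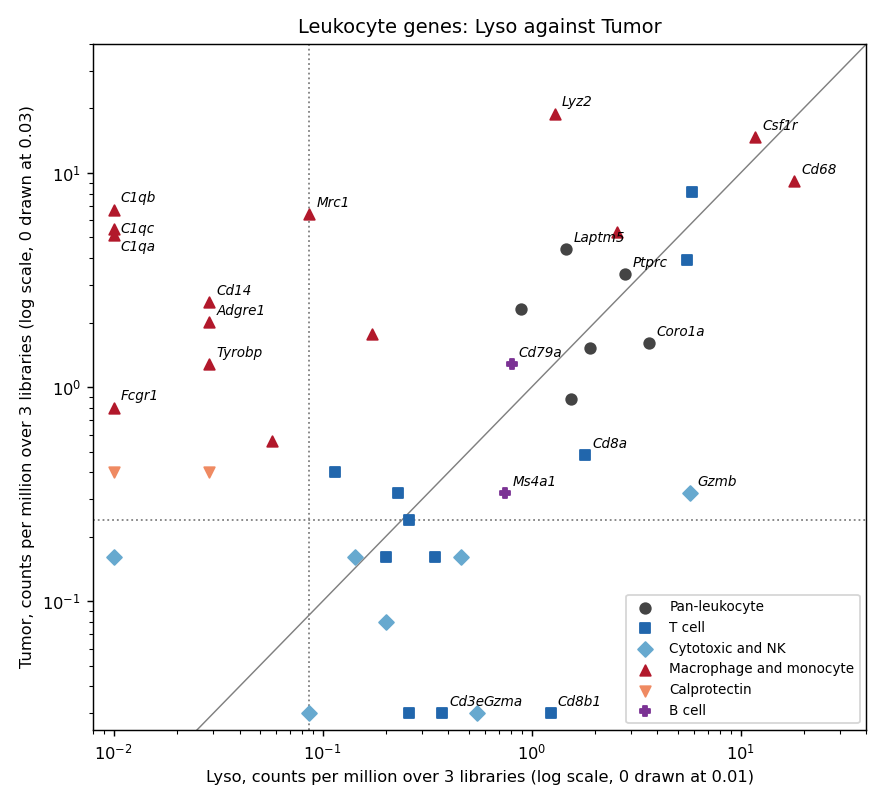
CPM over the pooled counts of Lyso (horizontal, log scale) and Tumor (vertical, log scale) for the 42 genes, with 1 symbol per gene and class, the line of equal level, and dotted lines at 3 counts over each group (0.0860 and 0.241 CPM). The C1q chains, Mrc1, Cd14 and Adgre1 stand far above the line, Gzmb and Cd8b1 far below, and Ptprc close to it.

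**Figure D5:**
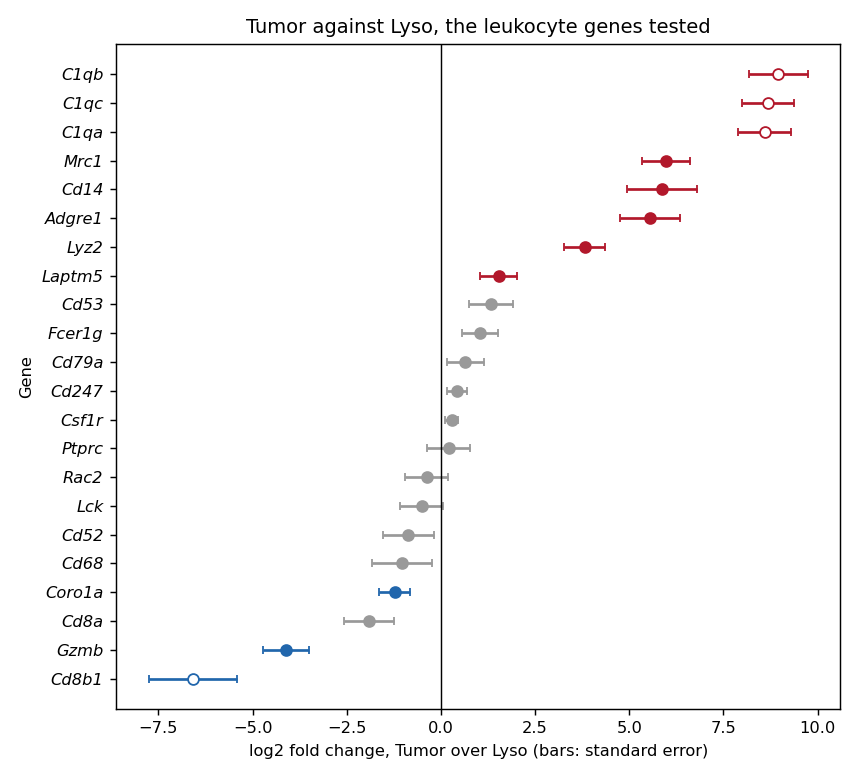
Log2 fold change of Tumor over Lyso with its standard error for the 22 genes tested, in red where called higher, in blue where called lower and in grey otherwise. Open symbols are genes at 0 in 1 of the groups, whose fitted fold change is no bound, and the 8 genes called higher sit at the top, with C1qb first.

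Several lineage genes were present in B16F10 cultures to which no leukocyte material had been added. In WT, 10 of the 42 genes had more than 3 counts in at least 1 library: Cd247, Cd28, Cd68, Cd79a, Coro1a, Csf1r, Fcer1g, Laptm5, Lck and Lyz2. Csf1r, the receptor for macrophage colony-stimulating factor, had 17, 17 and 166 counts in WT, 127, 119 and 159 in ITF1, Rel and ITM, 118, 140 and 151 in Lyso, and 41, 77 and 65 in Tumor. In CPM it was 8.85 ± 1.46 in WT, 9.07 ± 0.971 in the relapsed lines, 12.1 ± 0.960 in Lyso and 14.7 ± 1.20 in Tumor (SD, n = 3 each). Its Tumor libraries lay above WT, and the log2 fold change of 0.71 (SE 0.19, edgeR adjusted p = 0.0189) was too small for a call. Of its exonic bases, 15.1% lie opposite exons of Hmgxb3.

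Cd68, a lysosomal protein often used as a macrophage marker, had 2, 28 and 282 counts in WT and 454, 87 and 39 in ITF1, Rel and ITM. It had 213, 205 and 213 in Lyso and 22, 46 and 46 in Tumor. ITF1 held the highest level of the 12 libraries, at 34.8 CPM, and WT 1 the lowest, at 1.13 CPM. Tumor had 9.07 ± 1.84 CPM (SD, n = 3) of Cd68, below each Lyso library, with 18.8 ± 1.44 CPM (SD, n = 3), though the log2 fold change of -1.04 had an adjusted p of 0.379.

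Cd247, the zeta chain of the T cell receptor complex, had 10, 11 and 134 counts in WT and group means from 6.06 CPM in WT and Lyso to 8.07 CPM in Tumor. The 4 groups overlapped, but 56.4% of its exonic bases lie opposite exons of Pou2f1. Lck, the kinase that acts first at that receptor, had 12, 3 and 23 counts in WT, 65, 63 and 66 in Lyso and 12, 11 and 26 in Tumor. WT 1, at 6.78 CPM, lay above all Lyso libraries, and the log2 fold change of 1.29 in Lyso had an adjusted p of 0.307. Cd28, the costimulatory receptor of T cells, had 33 counts in WT 3 and 22 in ITF1, more than the 4 it had in each Lyso library. WT 3 held 1.94 CPM, and the 0 counts of the shallower WT 1 and WT 2 allow up to 1.80 and 1.28 CPM.

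In the lines grown out of relapsed tumors, no difference from WT passed the test. No member was called higher or lower in them than in WT by edgeR, where 0.0134% of all genes tested were called higher. At an unadjusted p under 0.05 the number was also 0 of the 22 tested, and DESeq2 called 0. Of these 22, 5 were at 0 in both groups and could show no difference. With so few calls over all genes, 0 calls say little about the members. The smallest adjusted p was 0.492, for Cd53, and the median log2 fold change of the 22 was 0.02. In the 44239605 counts of the relapsed lines, Gzmb, Gzma, Cd3e, Cd3d, Adgre1, Tyrobp and the 3 C1q chains were at 0, which allows up to 0.0678 CPM each. Ptprc had 1, 0 and 6 counts in ITF1, Rel and ITM.

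Tumor was also compared with the relapsed lines, which share its origin but not the fresh isolation. Here 15 of the 42 genes, out of the 22 tested, were called higher, beside 8.36% of all genes tested. The number called lower was 0, but genes at 0 in the relapsed lines could not be called lower. They include the 8 macrophage genes and 5 pan-leukocyte genes, and also Cd8a and Gzmb. These last 2 rest on 6 and 4 counts over the Tumor libraries, with Tumor 1 at 0 for Cd8a and Tumor 3 at 0 for Gzmb, and adjusted p-values of 0.0404 and 0.0394 (edgeR). For the other 13 genes with the exception of Cd52, the Tumor libraries lay above all relapsed lines. These genes had been called in this same comparison, so their separation adds no further evidence, and its share over all genes was not counted. The comparisons of Tumor with WT, Lyso and the relapsed lines share the 3 Tumor libraries.

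B cell genes were present in Lyso. Ms4a1, encoding CD20, had 10, 13 and 3 counts in Lyso, 4 in Tumor 4, 1 in ITM and 0 in the other 7 libraries. It did not pass the filter, and its pooled level was at least 5.07-fold higher in Lyso than in WT. Cd79a, a chain of the B cell receptor, had 0, 1 and 5 counts in WT, 7 in each relapsed line, 8, 11 and 9 in Lyso, and 3, 3 and 10 in Tumor. It was called higher in Tumor than in WT (log2 fold change 2.17, SE 0.65, edgeR adjusted p = 0.0344), with 16 counts in all. In Lyso its log2 fold change was 1.52 with an adjusted p of 0.203, while the 3 Lyso libraries lay above WT.

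A second panel of 74 leukocyte genes was counted in the same way, and 32 of its genes passed the filter on low counts. Over all genes tested, 2.43% were called higher in Lyso than in WT and 8.56% in Tumor, and these shares stand beside each list of the panel. Here too a gene can pass the filter through the group in which it is high, and a gene at 0 in WT could not be called lower. Among its B cell genes, Cd79b and Pax5 were higher in Lyso than in WT, and Jchain, the joining chain of secreted antibodies, was higher in Tumor (log2 fold change 4.59, adjusted p = 0.0225 by edgeR). Pax5, the factor that keeps B cells committed, had 17, 16 and 13 counts in Lyso and 0, 0 and 1 in WT, with an adjusted p of 0.0224 (edgeR). Of its 20 T cell genes, 4 were tested and 2 (Tcf7 and Il2rb) were higher in Lyso. Tcf7, a T cell factor of the Wnt pathway, had 1338, 1273 and 1281 counts in Lyso. It was at 14, 21 and 108 in WT and 54, 113 and 167 in Tumor. Tcf7 rose by 4.0 on the log2 scale in Lyso (SE 0.28, edgeR adjusted p = 2.5e-05) and by 1.88 in Tumor (SE 0.29, edgeR adjusted p = 0.000657). B16F10 cultures without added T cell material thus held Tcf7 too, with 276 counts over the relapsed lines. In Lyso it made up 3892 of the 4343 counts of the 20 genes, and the source of this RNA was not tested. Among T cell genes under the filter, Il2ra, the activation marker CD25, had 13, 8 and 15 counts in Lyso and 0 in all other libraries, and Trbc2, a constant segment of the receptor's beta chain, had 16, 14 and 11 in Lyso and 0, 0 and 3 in Tumor; these 2 were chosen after their values were seen. The lowest p in the falling direction belonged to Ccl5 in Lyso (log2 fold change -1.93, adjusted p = 0.286) and Lat in Tumor (-2.39, adjusted p = 0.275), neither a call.

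Of the 20 myeloid genes of the second panel, 9 were tested. Of these, 5 were higher in Tumor than in WT (8.56% over all genes tested) and 2 in Lyso (2.43%). Mpeg1, the pore-forming perforin-2 of phagocytes, was the one with the smallest p in Tumor, with 8, 28 and 49 counts there and 0 in all WT libraries and relapsed lines (edgeR adjusted p = 0.00107). It also had 21, 19 and 23 counts in Lyso. Ncf1, a subunit of the NADPH oxidase, led in Lyso with 8, 16 and 17 counts against 0, 0 and 2 in WT (log2 fold change 3.54, edgeR adjusted p = 0.0171). Spi1, which encodes PU.1, had 2, 3 and 3 counts in WT, 4, 1 and 3 in Lyso (log2 fold change -0.94, adjusted p = 0.636) and 11, 7 and 6 in Tumor. None of the 6 neutrophil genes had more than 2 counts in any library.

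Of the 6 dendritic cell genes, 2 were tested and 1 was called in Lyso (2.43% over all genes tested). Ccr7, the homing receptor of dendritic cells and also of lymphocytes, had 15, 18 and 14 counts in Lyso and 0, 0 and 1 in WT (edgeR adjusted p = 0.0141). In Tumor it had 1, 0 and 2 (adjusted p = 0.324). Of the 16 pan-leukocyte genes of this panel, 13 were tested, 3 were higher in Lyso (2.43% over all genes tested) and 8 in Tumor (8.56%). Selplg, the selectin ligand, led in Lyso (16, 15 and 9 counts against 0, 0 and 1 in WT, edgeR adjusted p = 0.0140). Hcls1, an actin regulator of blood cells, led in Tumor (6, 8 and 11 counts against 0, 0 and 3 in WT, edgeR adjusted p = 0.00168). The smallest p among lower values was that of Fyb in Lyso (log2 fold change -0.95, adjusted p = 0.303) and Was in Tumor (-0.28, adjusted p = 0.782). Over the 74 genes, 33 were detected in all Lyso libraries, 16 in all Tumor libraries, 13 in all relapsed lines and 6 in all WT libraries. The share of all genes detected in this way was not counted.

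Cells other than leukocytes were followed by their own genes. Most fibroblast genes rose in the Tumor libraries, where Dcn, the matrix proteoglycan decorin, stood at 285 CPM against 1 count over the WT libraries (edgeR adjusted p = 5.74e-09). No fibroblast gene was called higher in Lyso, where Col1a1 and Postn were lower than in WT (Postn by a log2 fold change of -2.17, edgeR adjusted p = 0.00321) and Lum had an adjusted p of 0.166. Tek, an endothelial receptor, had 7.55 CPM in Tumor and 1 count over WT (log2 fold change 7.0, edgeR adjusted p = 6.71e-05), while in Lyso Vwf (0.84, adjusted p = 0.602) and Cdh5 (-2.16, adjusted p = 0.476) were not called. The beta-globin gene Hbb-bs, of red cells, was called in Tumor (edgeR adjusted p = 0.00434) and not in Lyso (adjusted p = 0.128). None of the 10 melanocyte genes was called in either group, with Mitf at 0.99 (adjusted p = 0.0113) and Tyrp1 at -0.66 (adjusted p = 0.0251) in Tumor and Gpr143 at 0.97 (adjusted p = 0.0577) and Tyrp1 at -0.04 (adjusted p = 0.952) in Lyso on the log2 scale. No keratinocyte gene passed the filter.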

How the data were processed

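Per the labels and the paper's methods, the authors trimmed reads with fastp 0.19.6, aligned them to GRCm38 with STAR 2.7.1a and deposited raw counts per gene, 1 column per library, without normalization, and they tested the counts with DESeq2 1.24.0. The strand setting and the annotation release are not given in the sources used here. Of a library's tallied reads, 36.17% to 39.36% fell on genes and 43.53% to 44.77% on no annotated feature. The rows of unmapped, multimapping, ambiguous and featureless reads were left out of the library sizes. Genes that overlap on opposite strands, and near copies, are uncertain. Symbols and positions came from GENCODE vM21 on GRCm38 and promoters from RefSeq.

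From the counts, edgeR 4.0.16 (glmQLFit and glmQLFTest) was fitted to all 12 libraries with TMM scaling, after filterByExpr by group kept 14924 genes. DESeq2 1.42.0 was run as an alternative. Calls need an adjusted p under 0.05 (Benjamini-Hochberg over all genes tested) and an absolute log2 fold change over 1. The standard error (SE) was taken as the absolute log2 fold change divided by the square root of the F statistic. CPM values are scaled by TMM per library, and pooled CPM are counts over the summed depth of a group. Folds against a group at 0 use 3 counts over that group, and 95% intervals of pooled ratios are exact (Clopper-Pearson on the split of the counts) and cover counting error only. No test compares sums over members. The tests were also run on simulated counts with the same spread for every gene. No gene was set to 0 in a group there, so that run does not cover members at 0 in a whole group. Depth and group were partly confounded, since the Tumor libraries were shallow and the Lyso libraries deep.

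All 42 members are accounted for. Counts per library are given for those called in at least 1 of the 5 comparisons, for those over 3 counts in all Lyso or all Tumor libraries and in at most 1 WT library, and for defining genes of each class, and in the other lists for the gene with the smallest p in each direction against WT. The members and lists were chosen with earlier results of these data known. The labels number Tumor 1, 3 and 4 in the titles and 1 to 3 in the protocol, and the titles were used. Numbers shared between WT, Lyso and Tumor are not shown to pair the libraries. The correlations of their deviations from the group means ran from -0.0081 to 0.0649. With 3 libraries a group, several of them shallow, such values cannot exclude a pairing. The closest replicates, Lyso 2 and Lyso 3, differed by more than sampling noise (chi-square per degree of freedom 1.595) and were kept as 2 libraries. The relapsed lines, which are deep libraries of different lines, gave the largest values, 51.8 to 73.4. Alternatives were DESeq2, RLE or library-size scaling, no filter, a fit of the compared groups, the adjusted p alone, a common CPM floor, a replicate block, each library left out, and a control of similar depth. 1 gene of the second panel is not reported here.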

Additional observations from a re-analysis of the deposited data

How the results depend on the processing

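No call of a member changed direction under any alternative run. Of 626 recomputed calls of single members, 546 stayed past the threshold and 80 did not. A call whose gene no longer passed the filter in an alternative is not among the 626, so losses of that kind are not counted. With only the compared groups fitted, 35 calls were recomputed, where RLE scaling recomputed 48. The tallies per gene likewise cover only the alternatives that tested the gene. C1qa, C1qb, C1qc, Lyz2 and Mrc1 were called in Tumor against WT and against Lyso, and Gzmb and Coro1a in Lyso against WT, under every alternative that tested them. The number of members higher in Lyso than in WT, 8, became 5 against the control of similar depth, WT 3, and the number higher in Tumor than in WT, 14, became 7 with only the compared groups fitted and 6 against WT 1 and WT 2, the controls of similar depth. With no filter on low counts, 6 members in place of 3 were lower in Tumor than in Lyso. With one CPM floor for all libraries, 8 members were detected in every Lyso library and 3 in every relapsed line. Leaving out 1 library at a time gave 2 to 8 members higher in Lyso than WT, 6 to 17 higher in Tumor than WT, 6 to 9 higher and 2 to 3 lower in Tumor than Lyso, 10 to 16 higher in Tumor than the relapsed lines, and 0 higher in the relapsed lines than WT. The lowest numbers against WT came without WT 3, the deepest control. The replicate numbers are not shown to pair the libraries. A fit of WT, Lyso and Tumor with the replicate number as a block called 4 members higher in Lyso than WT, 7 higher in Tumor than WT, and 5 higher and 1 lower in Tumor than Lyso, while the fit of these libraries without the block, added after seeing the data, called 5 higher in Lyso than WT and 9 higher in Tumor than WT. The cause of these changes was not tested, but fewer members, 15, passed the filter in the last 2 fits. DESeq2 called 7 members higher in Lyso than WT and 15 higher in Tumor than WT. It called 9 higher and 2 lower in Tumor than Lyso, and 18 higher in Tumor than the relapsed lines. Depth limits the Tumor, WT 1 and WT 2 values most.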
